A study of Rattus with 12 samples.

Results

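The pore-forming alpha1 subunits of the voltage-gated calcium channels are described here across rat brain cell co-cultures exposed to fentanyl, a synthetic opioid. The genes were taken by symbol and not by any measured value. They are Cacna1a, Cacna1b, Cacna1c, Cacna1d, Cacna1e, Cacna1g, Cacna1h and Cacna1i, 8 of the 17337 genes in the table of read counts. All 8 passed the filter on low counts that left 12271 genes for testing. RNA sequencing was made of 12 primary cultures of Sprague Dawley rat cells, each holding cortical neurons, astrocytes and oligodendrocyte precursor cells (OPCs) that had been purchased as separate preparations. The cultures were kept for 24 to 26 days in vitro and then had 4 days without drug (untreated: cultures A, G, M and P), with 0.01 μM fentanyl (low dose: B, H, N and Q) or with 10 μM fentanyl (high dose: C, I, O and R). Total counts were 12059872 to 17023909 in untreated, 12907388 to 16512387 in low dose and 15102785 to 24813893 in high dose cultures. The comparisons asked whether either dose changed the RNA of these channels, and whether the doses differed from each other.

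A voltage-gated calcium channel opens when the membrane depolarizes, and its alpha1 subunit holds both the pore and the voltage sensor. The Cav1 subfamily (Cacna1c and Cacna1d, L-type) couples activity to gene transcription, the Cav2 subfamily (Cacna1a, P/Q-type; Cacna1b, N-type; Cacna1e, R-type) admits the calcium that triggers transmitter release, and the Cav3 subfamily (Cacna1g, Cacna1h and Cacna1i, T-type) opens near the resting potential and shapes burst firing. Opioid receptors are known to inhibit N-type and P/Q-type channels at nerve terminals through G proteins, an action on the channel protein and not on its RNA.

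Untreated culture G stood apart from the other 11 cultures. Its neuron marker score, the mean of log2(CPM + 1) over 14 neuronal genes (CPM, counts scaled to library size), was 4.27, whereas the others lay between 7.58 and 8.02. Rbfox3, a neuron-specific splicing factor, had 20 counts in culture G but 714 to 2019 in each of the others. Other neuronal markers were less reduced, such as Gap43 with 993 counts against 1046 to 2327 and Tubb3 with 1211 against 2720 to 8148. In bulk RNA, fewer neurons and less RNA per neuron cannot be told apart. Because G is 1 of the 4 untreated cultures, each comparison with the untreated condition is given with it and without it. The model drew 1 estimate of the spread from all 12 cultures, so G also bore on the standard errors of high vs. low dose. A model without G for that comparison is given further below. The culture letters also follow each other from untreated to high dose, which gives the letter sets ABC, GHI, MNO and PQR. No source says that such a set shares a preparation, and differences within the sets are given as values.

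None of the alpha1 genes differed between conditions in edgeR's quasi-likelihood test, where a call needed both an adjusted p below 0.05 and a log2 fold change of more than 0.5 either way. The adjusted p was 1 for every one of them in every comparison. No gene at all passed (0% of 12271 genes in each comparison), and 0 of the 8 had an unadjusted p under 0.05, against 0.742% of all genes for low dose vs. untreated, 1.19% for high dose vs. untreated and 1.17% for high vs. low dose. DESeq2 likewise called 0 of the 8, and 0 of the 8 had an unadjusted p under 0.05 with it. For low dose vs. untreated and for high vs. low dose, the count of members with such a p rose when G was left out of the model, as given below. What the data did hold was a lower level of 7 of the 8 transcripts in culture G than in every other culture, as for 28.4% of all genes. Cacna1b, Cacna1c, Cacna1e, Cacna1g and Cacna1i had more RNA at the high dose than in the low dose culture of the same letter set, without passing the test. This held in all 4 sets, as for 11.7% of all genes, and the difference of Cacna1i in MNO rounds to 0. Levels are in CPM, which does not account for transcript length, so they were compared between cultures and not between genes.

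**Figure D1:**
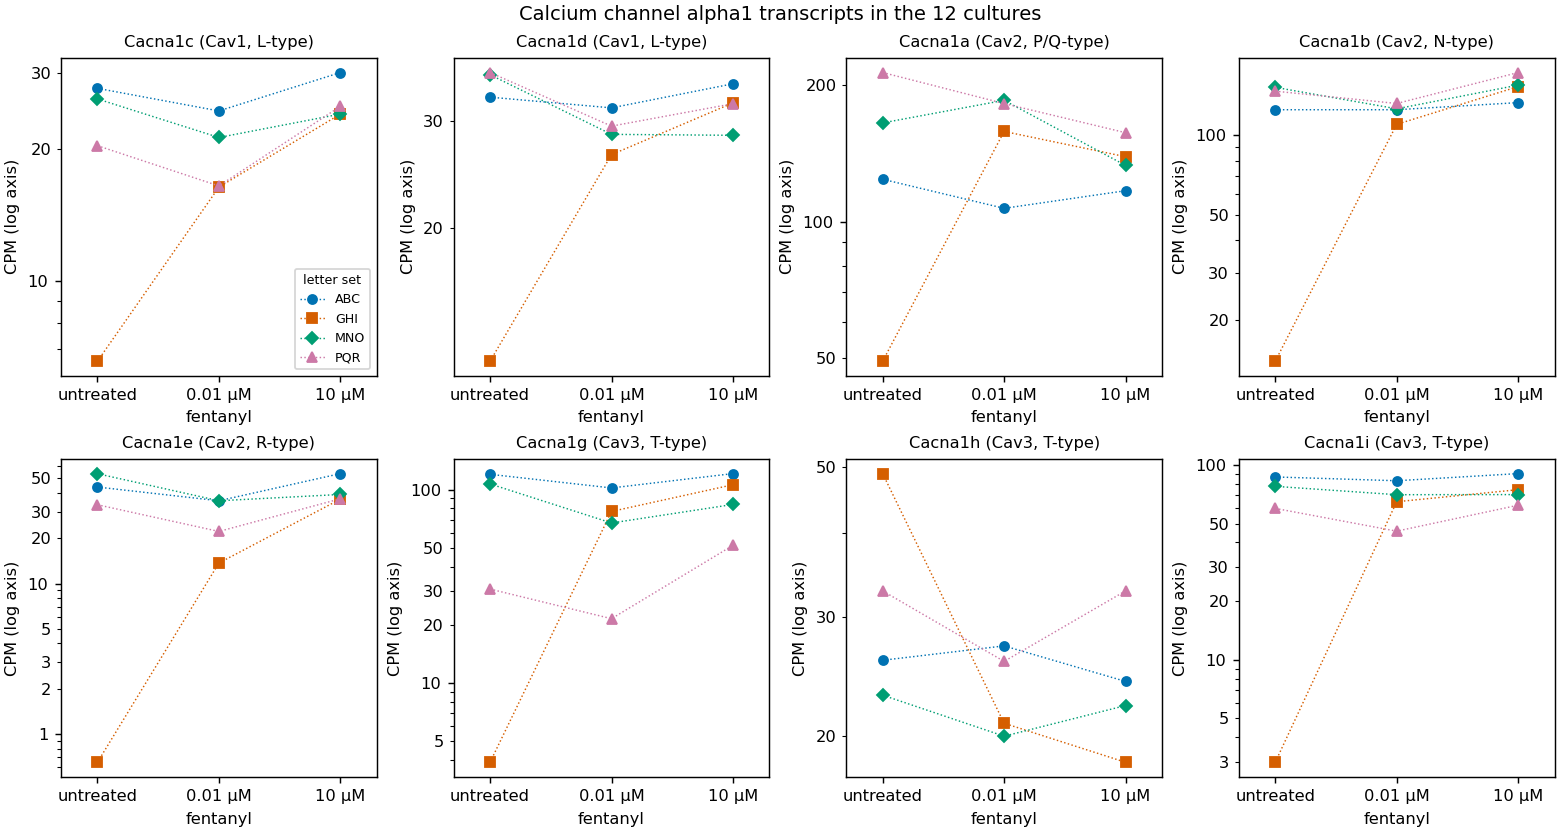
Level of each alpha1 gene (CPM, log axis) in the 12 cultures by condition, with 1 point per culture, a marker shape per letter set and dotted lines joining the cultures of a set. Culture G is the lowest point for 7 genes and the highest for Cacna1h (48.9 CPM).

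Cacna1b, the N-type alpha1 subunit of presynaptic terminals, had 125, 13.9, 152 and 147 CPM in untreated cultures A, G, M and P. At the low dose it had 125, 110, 126 and 132 CPM in B, H, N and Q, and at the high dose 133, 153, 155 and 173 CPM in C, I, O and R. Every high dose culture was thus above every low dose culture, by as little as 133 against 132 CPM, while the untreated cultures without G spanned 125 to 152 CPM and overlapped both. High vs. low dose, the log2 fold change was 0.32 (SE 0.27, 95% interval −0.27 to 0.91). On log2(CPM + 1) the difference was 0.31 with an exact two-sided permutation p of 0.0286, the smallest that 4 against 4 cultures allow, which adjusted over all genes was 1. Against untreated, the log2 fold change was 0.15 (SE 0.27) at the low dose and 0.47 (SE 0.27) at the high dose. Without G these became −0.18 (SE 0.09) and 0.14 (SE 0.09).

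Cacna1e, the R-type alpha1 subunit, varied more between cultures. It had 43.8, 0.649, 53.7 and 33.4 CPM in the untreated cultures in the order A, G, M and P, where the value of G rests on 10 counts. The low dose cultures B, H, N and Q had 35.5, 13.7, 35.5 and 22.2 CPM, and the high dose cultures C, I, O and R had 53.8, 36.4, 39.1 and 36.6 CPM. All high dose cultures were again above all low dose cultures, and untreated A, M and P (33.4 to 53.7 CPM) overlapped both, with low dose H and Q below all of them. The log2 fold change for high vs. low dose was 0.52 (SE 0.58, interval −0.75 to 1.80). The difference on log2(CPM + 1) was 0.69 (exact permutation p = 0.0286, adjusted over all genes 1). With the untreated condition as reference, the fold change was −0.07 (SE 0.59) at the low and 0.45 (SE 0.58) at the high dose, and without G it was −0.76 (SE 0.27) and −0.13 (SE 0.27).

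Cacna1a, the P/Q-type subunit that carries much of the release at central synapses, did not follow the other Cav2 genes. The untreated cultures A, G, M and P had 124, 49.3, 165 and 213 CPM, the low dose cultures 107, 158, 185 and 182 CPM, and the high dose cultures 117, 139, 133 and 157 CPM. The conditions overlapped in each comparison. Its log2 fold change was 0.13 (SE 0.26) for low dose vs. untreated, −0.09 (SE 0.26) for high dose vs. untreated and −0.22 (SE 0.25, interval −0.78 to 0.34) for high vs. low dose. Without G, the comparisons with untreated gave −0.03 (SE 0.13) and −0.21 (SE 0.13). Of the letter sets, only ABC had Cacna1a higher at the high than at the low dose.

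Cacna1b and Cacna1e were the only members whose low and high dose cultures did not overlap. Among all genes, 0.668% had every high dose culture above every low dose culture. For low dose vs. untreated and high dose vs. untreated, 0 of the 8 members were free of overlap (0.407% and 0.685% of all genes in either direction).

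Of the Cav1 genes, Cacna1d lay in a narrower range outside culture G than Cacna1c, with the highest level 1.36 and 1.83 times the lowest. Cacna1c, the L-type channel common to neurons, glia and muscle, had 27.6, 6.55, 26.1 and 20.4 CPM in untreated A, G, M and P, 24.5, 16.4, 21.3 and 16.5 CPM at the low dose, and 30.0, 24.1, 24.1 and 25.1 CPM at the high dose. Only low dose culture B (24.5 CPM) reached into the high dose range. For high vs. low dose the log2 fold change was 0.39 (SE 0.22, interval −0.09 to 0.87), and the exact permutation p was 0.0857. Against untreated it was −0.13 (SE 0.22) at the low and 0.26 (SE 0.22) at the high dose, and without G −0.36 (SE 0.12) and 0.04 (SE 0.12). Cacna1d, the L-type channel that activates at more negative potentials, was the steadiest member. Its level was 32.8, 35.7 and 36.0 CPM in untreated A, M and P (12.1 CPM in G), 26.4 to 31.5 CPM at the low dose and 28.4 to 34.5 CPM at the high dose. The 3 untreated cultures other than G lay above every low dose culture, and with G included the groups overlapped. How many of all genes were separated in this way without G was not counted, so the separation is given as a description only. Its 95% intervals were the narrowest of the family, from −0.40 to 0.16 for low dose vs. untreated, −0.26 to 0.30 for high dose vs. untreated and −0.13 to 0.41 for high vs. low dose. Without G its log2 fold change was −0.27 (SE 0.09) at the low and −0.13 (SE 0.10) at the high dose against untreated.

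The T-type genes split into Cacna1g and Cacna1i on one side and Cacna1h on the other. Cacna1g had 120, 3.89, 107 and 30.6 CPM in untreated A, G, M and P. It had 102, 77.1, 67.2 and 21.5 CPM at the low dose and 121, 106, 83.8 and 51.5 CPM at the high dose, so the conditions overlapped widely. Its log2 fold change was 0.08 (SE 0.63) for low dose vs. untreated, 0.52 (SE 0.64) for high dose vs. untreated and 0.43 (SE 0.63) for high vs. low dose, with intervals up to 2.83 log2 units wide. Without G, the first 2 of these were −0.46 (SE 0.23) and 0.04 (SE 0.23). Cacna1i, which is largely restricted to neurons, had 86.7, 2.98, 77.6 and 59.8 CPM in the untreated cultures, 82.9, 64.7, 70.3 and 45.7 CPM at the low dose and 90.2, 74.6, 70.4 and 62.1 CPM at the high dose. These groups overlapped too, and the log2 fold change was 0.33 (SE 0.40) for low dose vs. untreated, 0.47 (SE 0.40) for high dose vs. untreated and 0.15 (SE 0.39) for high vs. low dose. Without G, the comparisons with untreated gave −0.23 (SE 0.08) and −0.06 (SE 0.08).

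Cacna1h, a T-type subunit also found outside the nervous system, had 25.9, 48.9, 23.0 and 32.8 CPM in untreated A, G, M and P. At the low dose its level was 27.2, 20.9, 20.0 and 25.8 CPM and at the high dose 24.1, 18.3, 22.2 and 32.8 CPM. The log2 fold change was −0.34 (SE 0.24, interval −0.87 to 0.19) for low dose vs. untreated and −0.29 (SE 0.24, interval −0.82 to 0.24) for high dose vs. untreated, with overlap in both. Without G, whose level was the highest, it was −0.19 (SE 0.19) and −0.14 (SE 0.19). For high vs. low dose it was 0.05 (SE 0.23).

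Over the family, 4 of the 8 fold changes were above 0 for low dose vs. untreated, 6 for high dose vs. untreated and 7 for high vs. low dose. The median of the members was 0.01, 0.36 and 0.23 in this order, where the median of all genes tested was 0.01, 0 and −0.01. The median of 0.36 for high dose vs. untreated rested on culture G, as the fold changes without it lay between −0.21 and 0.14. So did the 4 fold changes above 0 for low dose vs. untreated, as without G those of all 8 members were below 0. How many of all genes lay below 0 without G was not counted.

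**Figure D2:**
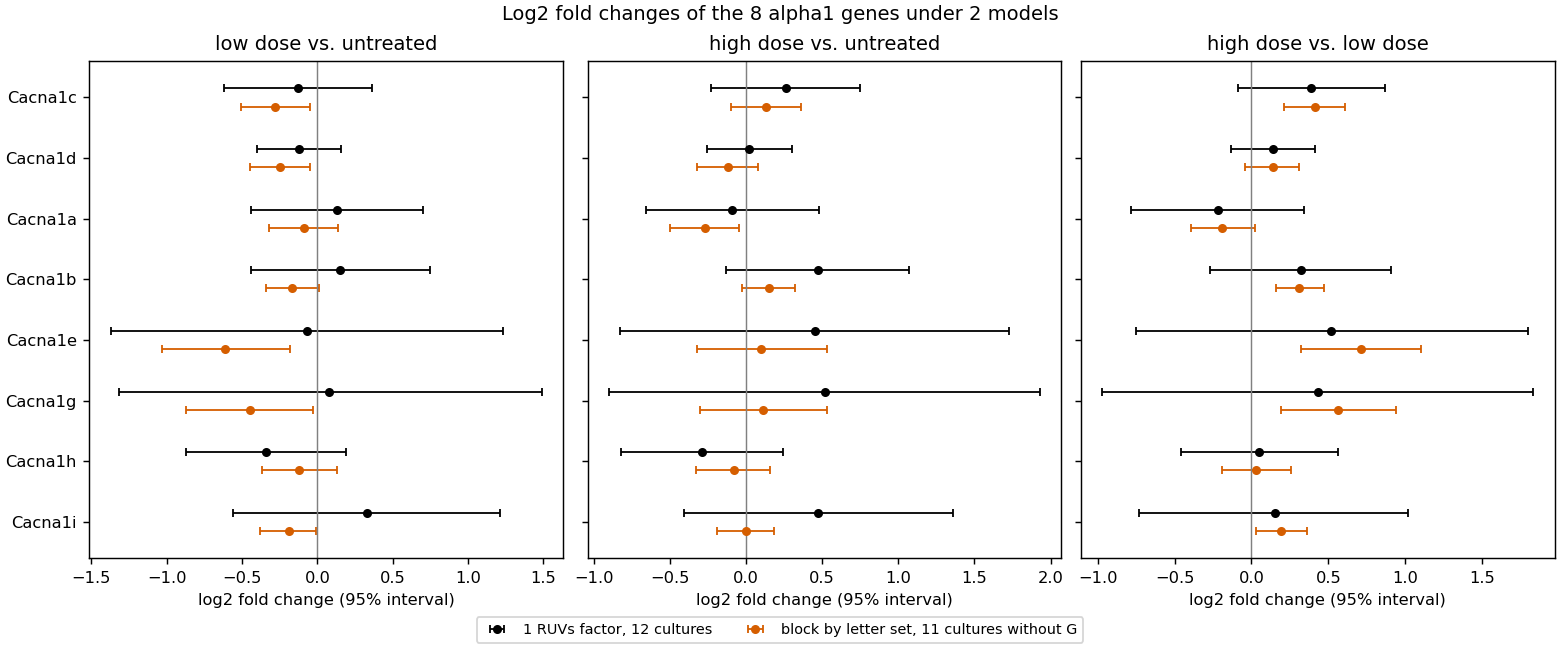
Log2 fold change of each alpha1 gene with its 95% interval in the 3 comparisons, with 1 symbol for the reported model on all 12 cultures and 1 for a model with the letter sets as a block and without culture G. The intervals of the reported model cross 0 for all members, and those of the other model lie above 0 for 5 members in high vs. low dose.

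When culture G was left out and the letter set entered the model as a block, the intervals narrowed. High vs. low dose, 5 of the 8 members then had an unadjusted p under 0.05 and a higher level at the high dose, which held for 7.75% of the 12337 genes tested in that model, and 0 had a lower level (5.85%). Cacna1e was higher by 0.71 (SE 0.17, interval 0.32 to 1.10), Cacna1c by 0.41 (SE 0.09, interval 0.21 to 0.61) and Cacna1b by 0.31 (SE 0.07, interval 0.16 to 0.47) on the log2 scale. Cacna1g followed with 0.56 (SE 0.16, interval 0.19 to 0.94) and Cacna1i with 0.19 (SE 0.07). The adjusted p of these genes lay between 0.127 and 0.31, and none was called, whereas 14 of all genes (0.113%) were.

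In the same model, low dose vs. untreated, 5 members had an unadjusted p under 0.05 and a lower level at the low dose (3.19% of all genes), and 0 a higher one (4.35%). These were Cacna1e at −0.61 (SE 0.19), Cacna1g at −0.45 (SE 0.18), Cacna1c at −0.28 (SE 0.10), Cacna1d at −0.25 (SE 0.09) and Cacna1i at −0.19 (SE 0.08). The adjusted p was 0.644 to 0.649, and no gene was called (0%). High dose vs. untreated, Cacna1a alone passed the unadjusted threshold, with a lower level at the high dose (−0.27, SE 0.10, adjusted p = 0.429). Lower genes of this kind made up 3.67% and higher ones, with 0 members, 5.76% of all genes, and 15 genes (0.122%) were called, none of them a member. Low dose vs. untreated and high vs. low dose share the low dose cultures, so the opposite signs in these comparisons are not separate observations.

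Within the letter sets, 5 members (Cacna1b, Cacna1c, Cacna1e, Cacna1g and Cacna1i) were higher at the high than at the low dose in all 4 sets, a pattern shown by 11.7% of all genes, and 0 were lower in all 4 (11.1%). For Cacna1e the differences were 0.59, 1.35, 0.14 and 0.70 on log2(CPM + 1) in ABC, GHI, MNO and PQR, and for Cacna1b they were 0.09, 0.47, 0.29 and 0.39. Those of Cacna1c were 0.28, 0.53, 0.17 and 0.57. The smallest was that of Cacna1i in MNO, which rounds to 0. In the 3 sets without G, low dose vs. untreated, 6 members were lower in all sets (13.7% of all genes) and 0 higher (13.9%). They were Cacna1b, Cacna1c, Cacna1d, Cacna1e, Cacna1g and Cacna1i, among which Cacna1b in ABC was lower by an amount that rounds to 0. In ABC, MNO and PQR the neuron score was lower at the low dose too (−0.06, −0.19 and −0.02), while the microglia score (0.40, 1.12 and 0.15), the fibroblast score (0.17, 2.28 and 0.66) and the smooth muscle score (0.04, 1.51 and 0.31) were higher, and their part in the members' differences was not tested. High dose vs. untreated, 1 member, Cacna1b, was higher in all 3 sets (15.1%), and Cacna1a and Cacna1h were lower in all 3 (14.5%). The difference of Cacna1h in PQR rounds to 0.

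**Figure D3:**
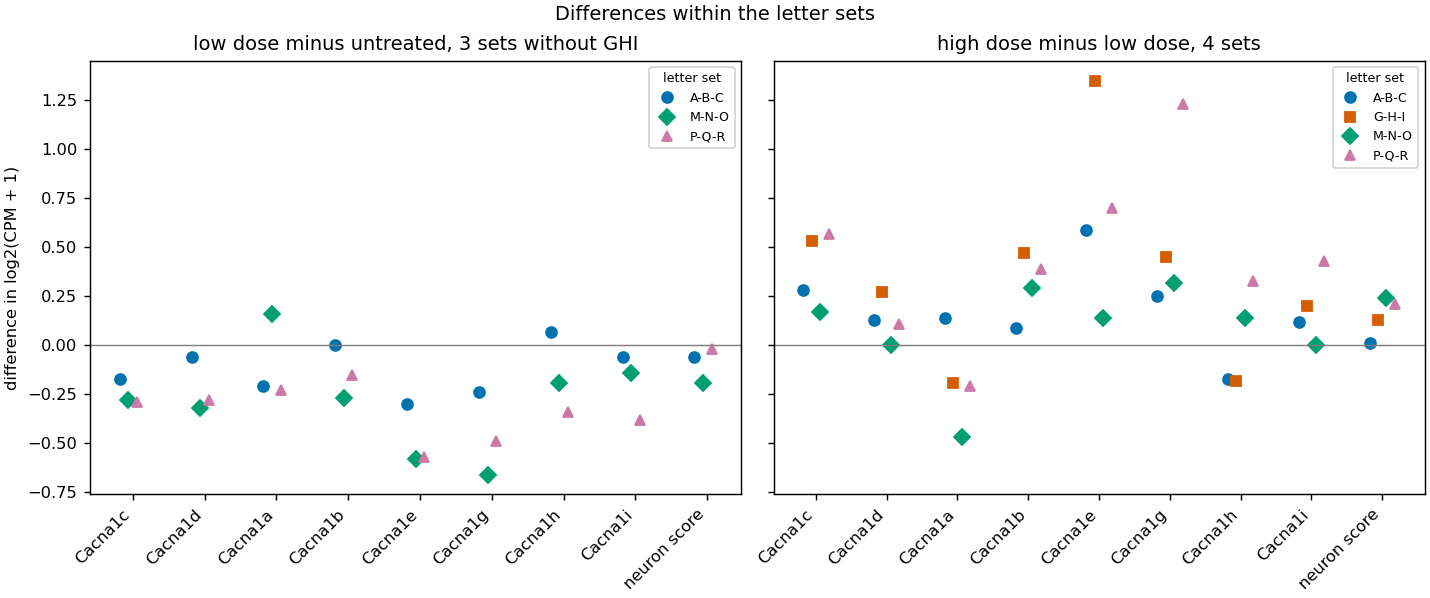
Difference in log2(CPM + 1) within each letter set, for low dose minus untreated without GHI and for high minus low dose in all 4 sets, for the 8 alpha1 genes and the neuron marker score, 1 point per set. In high vs. low dose, the points of Cacna1b, Cacna1c, Cacna1e, Cacna1g, Cacna1i and the neuron score lie above 0, apart from the point of Cacna1i in MNO, which rounds to 0.

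The neuron marker score moved in the same direction. It was higher at the high than at the low dose by 0.01, 0.13, 0.24 and 0.21 in ABC, GHI, MNO and PQR, with ranges of 7.79 to 8.02 at the high and 7.58 to 7.90 at the low dose, and all 14 neuronal markers were measured in each culture. After the neuron score was subtracted from each culture's value, 0 members had high and low dose cultures free of overlap. The difference was then 0.55 for Cacna1e (0.58, 1.22, −0.11 and 0.49 in the sets, exact permutation p = 0.2), 0.16 for Cacna1b (p = 0.371) and 0.24 for Cacna1c (p = 0.171). It was above 0 in each set for Cacna1b (0.08, 0.33, 0.05 and 0.18) and for Cacna1g (0.24, 0.31, 0.07 and 1.02, on average 0.41), and for Cacna1a it was −0.33. The part of neuron content in these differences was not tested further. Of the other cell types, the astrocyte score differed by −0.40 to 0.03, the OPC score was higher at the high dose by 0.07 to 0.17 in the 4 sets, and the score of smooth muscle genes was lower by 0.28 to 1.94, with the widest gap in MNO.

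Culture G gave a reading of the family with few neuronal transcripts. Against the mean of untreated A, M and P on log2(CPM + 1), Cacna1e was lower by 4.73, from 43.7 ± 10.1 (SD, n = 3) to 0.649 CPM. Cacna1i was lower by 4.23 (46 counts in G), Cacna1g by 3.93 (60 counts) and Cacna1b by 3.25 (214 counts). The gap was smaller for Cacna1c, Cacna1a and Cacna1d, at 1.76, 1.71 and 1.45. Cacna1h alone was higher, by 0.84 (48.9 against 27.2 ± 5.07 CPM). Thus 7 members were lower in G than in each of the other 11 cultures, as were 28.4% of all genes, and 1 was higher, as were 27.7%.

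The marker lists show what else set G apart. All 14 neuronal markers were lower in G than in each other culture, with a median of −3.69 against untreated A, M and P. The 6 fibroblast markers tested were higher by 2.57 to 6.54 and the 10 microglial markers by a median of 2.28, and the 8 OPC markers by a median of 1.16. Astrocyte markers had a median of 0.31 and oligodendrocyte markers of −0.68. The 5 muscle and 3 endothelial markers had medians of −1.20 and 1.79. Cacna1h was thus higher in G, as the astrocyte, OPC, microglia, fibroblast and endothelial lists were by their medians. From 1 library, Cacna1h cannot be assigned to a cell type.

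**Figure D4:**
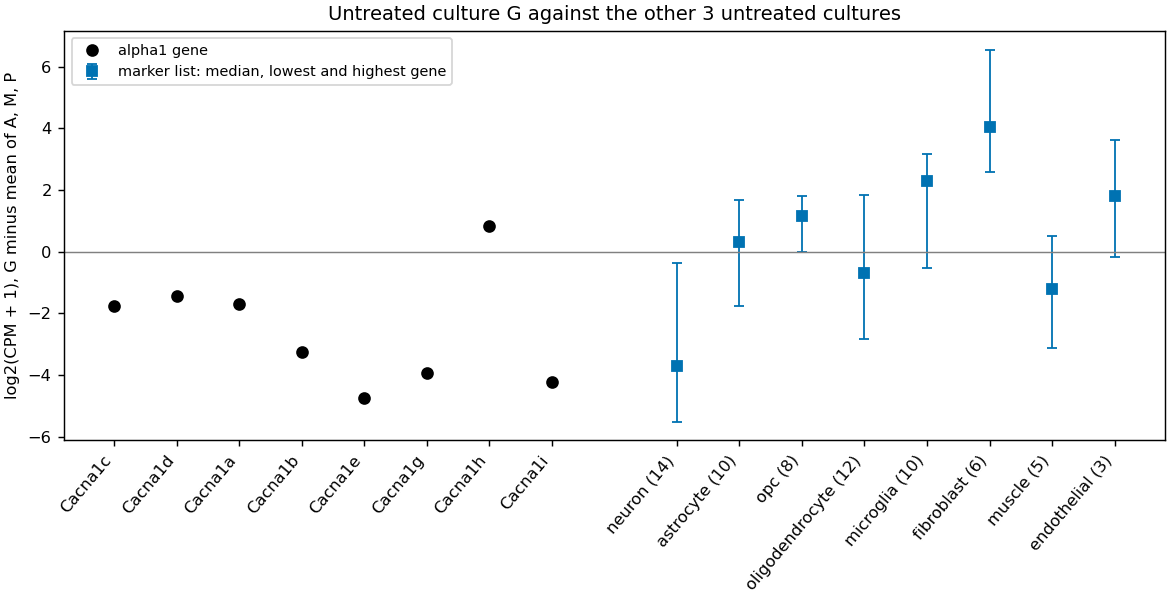
Log2(CPM + 1) in untreated culture G minus the mean of untreated cultures A, M and P, for the 8 alpha1 genes (points) and for 8 cell type marker lists (the median as a square and a bar from the lowest to the highest gene, with the number of genes on the axis). The alpha1 genes other than Cacna1h lie in the range of the neuronal markers (−5.51 to −0.37) and Cacna1h is above 0. Cacna1a, Cacna1c and Cacna1d also lie in the ranges of the oligodendrocyte (−2.83 to 1.83) and muscle markers (−3.11 to 0.52). Cacna1a and Cacna1d lie in that of the astrocyte markers (−1.75 to 1.69) as well.

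Among the 11 other cultures the genes differed in how far they spread. The highest level was 5.64 times the lowest for Cacna1g and 3.94 times for Cacna1e, whereas it was 1.36 times for Cacna1d and 1.57 times for Cacna1b. The remaining members lay between 1.79 and 2 times. Without G, the share of the variance of log2(CPM + 1) that lay between letter sets and, taken separately, between doses also differed by gene. For Cacna1g the letter sets held 83.0% and the doses 9.57%, and its mean was 114 ± 10.9 CPM in ABC (n = 3) and 34.5 ± 15.4 CPM in PQR (n = 3). In PQR the microglia marker score was also low, at 1.44 to 1.60 against 3.47 to 5.43 in the others. So was the endothelial score, at 0.68 to 0.81 against 1.14 to 1.99 in the others without G. The astrocyte score (8.41 to 8.81 against 7.17 to 8.06) and the OPC score (7.19 to 7.26 against 5.14 to 6.76) were high there. The part of these cell types in the level of Cacna1g was not tested. Cacna1a went the other way, with 116 ± 8.65 CPM in ABC and 184 ± 28.2 CPM in PQR.

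The doses held a larger share of the variance for the Cav1 genes and for Cacna1b and Cacna1e than for the other members. It was 59.7% for Cacna1d, 55.6% for Cacna1b, 46.9% for Cacna1c and 45.1% for Cacna1e, where the median of all genes was 7.96% for the doses and 75.3% for the letter sets. The letter sets held 22.1%, 30.1%, 46.8% and 47.5% for these genes in this order, so about as much as the doses for Cacna1c and Cacna1e. A dose share at least as high was seen in 0.742%, 1.22%, 2.59% and 3.05% of all genes, respectively. Without G, the condition means of Cacna1d were 34.8 ± 1.77 CPM untreated (n = 3), 29.0 ± 2.09 CPM at the low dose and 31.8 ± 2.51 CPM at the high dose (n = 4 each). Those of Cacna1b were 141 ± 14.2, 123 ± 9.39 and 153 ± 16.6 CPM. For both genes the low dose had the lowest mean, as it had for Cacna1c (24.7 ± 3.83, 19.7 ± 3.94 and 25.8 ± 2.85 CPM) and Cacna1e (43.7 ± 10.1, 26.7 ± 10.7 and 41.5 ± 8.30 CPM). Cacna1a, Cacna1g, Cacna1h and Cacna1i had dose shares of 9.57% to 14.2%.

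Ratios of genes within a culture do not depend on its depth. The ratio of Cacna1b to Cacna1a, N-type to P/Q-type, was chosen after the values had been seen and is given without a test, as 1 of 7 pairs within the subfamilies. Its log2 was 0.18, 0.14, 0.22 and 0.14 in high dose C, I, O and R. It was 0.02, −1.83, −0.12 and −0.54 in untreated A, G, M and P, and 0.23, −0.52, −0.55 and −0.46 in low dose B, H, N and Q. All high dose cultures were above all untreated cultures, also without G, and above low dose H, N and Q but not above B. Among the 21 values of 7 pairs in 3 comparisons, no other was free of overlap without G.

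The mean log2 ratio was 0.17 ± 0.04 at the high dose, −0.33 ± 0.37 at the low dose (SD, n = 4 each) and −0.21 ± 0.29 in the untreated cultures other than G (n = 3). High minus untreated, it differed by 0.16, 0.34 and 0.68 in ABC, MNO and PQR. High minus low, it differed by −0.05, 0.66, 0.77 and 0.60 in the 4 sets. The ratio of Cacna1e to Cacna1a at the high dose exceeded that at the low dose by 0.46, 1.60, 0.61 and 0.93 in the 4 sets. That of Cacna1c to Cacna1d did so by 0.16, 0.28, 0.18 and 0.48. Cacna1g to Cacna1h was higher by 0.42, 0.64, 0.17 and 0.92, and Cacna1g to Cacna1i by 0.13, 0.25, 0.32 and 0.82. For Cacna1b to Cacna1e and Cacna1i to Cacna1h the sign of the difference varied between sets. How many other gene pairs were higher in all 4 sets was not counted.

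**Figure D5:**
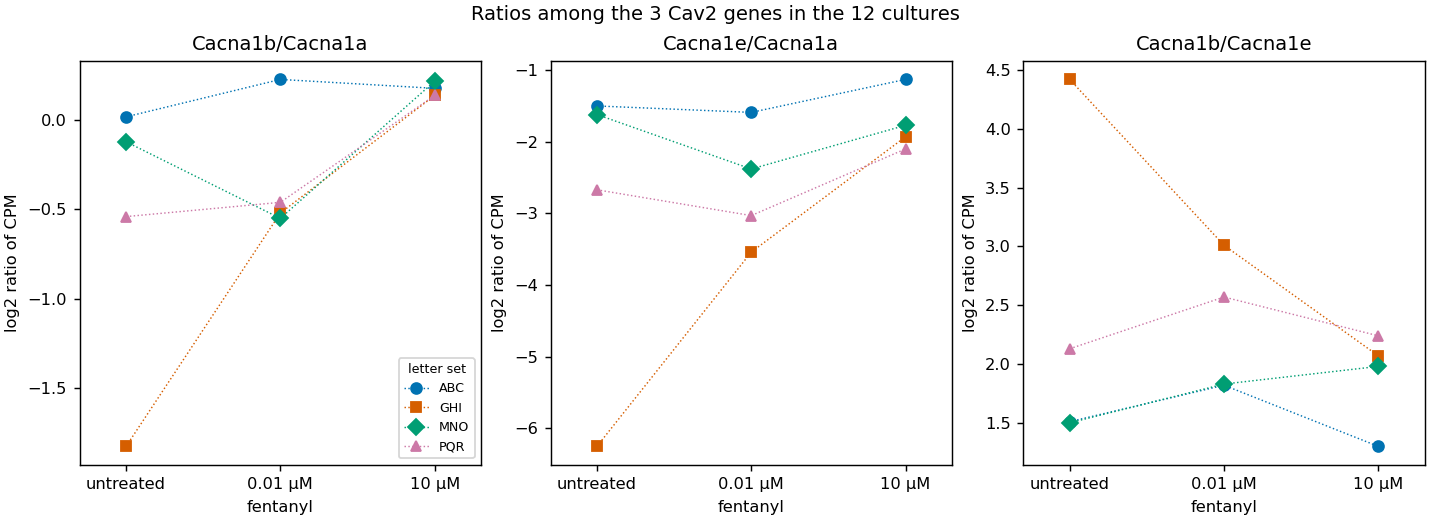
Log2 ratio of the CPM of each pair of Cav2 genes in the 12 cultures by condition, 1 point per culture with a marker shape per letter set and dotted lines joining the cultures of a set. For Cacna1b over Cacna1a, the high dose cultures lie between 0.14 and 0.22 and the low dose cultures between −0.55 and 0.23.

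For each member, the nearest genes were those with the smallest root mean square difference of the centred log2(CPM + 1) profile over the 12 cultures. These included Rab3c, a vesicle-associated GTPase, for Cacna1b (0.135), and Grin2b, an NMDA receptor subunit, and Bsn, a presynaptic scaffold protein, for Cacna1e (0.291 and 0.312). For Cacna1a they were R3hdm1 and Usp29 (0.111 and 0.117), for Cacna1c Celsr2 and Frmpd4 (0.121 and 0.123) and for Cacna1d Ralgapa1 and Usp13 (0.089 and 0.097). Dlg2, a postsynaptic scaffold, and Syt1, the calcium sensor of vesicle release, were nearest to Cacna1i (0.138 and 0.167). Necab3 and Pde2a were nearest to Cacna1g (0.317 and 0.320), and Chpt1 and Ankzf1 to Cacna1h (0.131 and 0.141). Culture G weighs heavily in these profiles. Over the other 11 cultures the nearest gene stayed for 2 members, Grin2b for Cacna1e (0.158) and Celsr2 for Cacna1c (0.088). It changed for the other 6, for instance to Stx17 for Cacna1b (0.061), Ksr1 for Cacna1i (0.087) and Chrm4 for Cacna1g (0.216).

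Most auxiliary subunits were also low in culture G, where 28.4% of all genes were below every other culture. The alpha2delta subunits bring the channel to the membrane, and 3 of 4 were tested. Cacna2d1 had 85.0 to 163 CPM in the cultures other than G and 32.6 CPM in G, Cacna2d3 had 80.7 to 195 against 6.16 CPM, and Cacna2d2 had 4.90 to 18.4 against 2.92 CPM. Cacna2d4 had too few counts to be tested. The beta subunits regulate gating from inside the cell, and all 4 were lower in G. Cacnb4 had 7.33 CPM there against 61.2 to 119 CPM elsewhere, and Cacnb1, Cacnb2 and Cacnb3 had 21.7, 22.9 and 27.4 CPM in G against at least 56.9, 27.0 and 90.4 CPM elsewhere. Of the gamma genes 6 of 7 were lower in G than in each other culture, the exception being Cacng4 (38.2 CPM in G, 17.1 to 42.7 CPM elsewhere).

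In the comparisons of conditions, 0 of the 3 alpha2delta genes, 0 of the 4 beta genes, 0 of the 7 gamma genes (many of which serve AMPA receptors) and 0 of 19 presynaptic and regulatory partners had an unadjusted p under 0.05. Nor did any of 16 further calcium-linked genes, which are calcium-activated potassium channels, release channels of intracellular stores, calmodulin-dependent kinases and calcium-binding proteins. High vs. low dose, the median log2 fold change was 0.10 for alpha2delta, 0.06 for beta, −0.04 for gamma, 0.11 for the partners and 0.16 for the calcium-linked genes, against 0.23 for the 8 alpha1 genes and −0.01 for all genes tested. In the same comparison Cacna2d1 had a fold change of 0.33 (SE 0.22) and Cacnb2 of 0.29 (SE 0.34), and neither passed the test. In the model with the letter set block and without G, these lists too had members with an unadjusted p under 0.05 for high vs. low dose. Higher at the high dose were 1 of 3 alpha2delta genes (Cacna2d1, 0.35, SE 0.13), 1 of 4 beta genes (Cacnb2, 0.28, SE 0.09), 0 of 7 gamma genes, 5 of 19 partners (Syt1 with 0.32, SE 0.08, and Stx1a, Rims2, Akap5 and Ppp3ca) and 3 of 16 calcium-linked genes (the kinase gene Camk2a with 0.52, SE 0.12, and Itpr2 and Ryr2 of the stores). Lower were 1 alpha2delta gene, Cacna2d2 (−0.31, SE 0.13), and 2 partners, Cabp1 and Rem2. None of them was called, and 7.75% of all genes were higher and 5.85% lower by this measure. By the same measure for low dose vs. untreated, 0 genes of these lists were higher (4.35% of all genes). Lower (3.19%) were 4 of 19 partners (Rims2, Rimbp2, Unc13a and Ppp3ca) and Camk2a. High dose vs. untreated, Cacnb2 and Stx1a were higher (5.76%) and Cacna2d2, Cabp1 and Kcnn2 lower (3.67%). None of these was called either. Among all these genes, chosen after its values were seen, only Gem, a small GTPase that inhibits calcium channels, had conditions free of overlap, in high dose vs. untreated (log2 fold change −0.42, SE 0.21, exact permutation p = 0.0286, adjusted p = 1), as had 0.685% of all genes. Culture G held its highest value (10.1 CPM against 3.46 to 5.57 CPM elsewhere), and without G the fold change was −0.29 (SE 0.19).

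Of the remaining genes of the alpha1 type, Cacna1s, the skeletal muscle channel, had 0.415 to 2.96 CPM outside G, and Cacna1f, the retinal channel, had 0 to 12 counts per culture. Nalcn, a sodium leak channel of related structure, had 50.6 to 115 CPM, and 29.4 CPM in G. All 3 were lower in G than in each other culture, as were 28.4% of all genes, which for Cacna1s rests on 5 counts against 7 in C and for Cacna1f on 0 against 4 in A. None had an unadjusted p under 0.05 in any comparison.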

How the data were processed

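Per the labels, poly(A)-enriched libraries were made with a kit that does not mark strand, so reads of a gene and of an antisense partner cannot be told apart. The authors aligned the reads to rn6 with STAR and deposited whole-number featureCounts counts per gene symbol, with no normalization. All 12 columns were matched to samples by title. The paper counts cultures as biological replicates, but whether the 4 per condition came from separate preparations is not given in the sources used here, so p-values measure the spread between these cultures.

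In R 4.3.3 with edgeR 4.0.16, TMM scaling was applied, and the filterByExpr function left 12271 genes. The model held the 3 conditions and 1 factor of unwanted variation (RUVs formula rewritten in R, all kept genes as controls), which took 41.0% of the variation within conditions. The quasi-likelihood test was made on the whole table with Benjamini-Hochberg adjustment and the thresholds for a call (adjusted p below 0.05, absolute log2 fold change above 0.5) taken from the paper. Standard errors were derived from the test statistics. Exact two-sided permutation tests used the 70 arrangements of 4 against 4 cultures (smallest p 0.0286) on log2(CPM + 1). DESeq2 1.42.0, other scalings, no filter, other factors, a letter set block, a neuron score covariate and omission of each culture were alternatives. The procedure was tested on simulated data.

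The members and lists were chosen with earlier results of these data known. Genes named are the members, partners with an unadjusted p under 0.05, those highest or lowest in a list or in lists of at most 4, and the 2 nearest profiles per member, of which 1 is not reported here. The 8 symbols matched the RefSeq gene table. Intervals and the floor of 3 counts cover counting error or replicate spread only.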

Additional observations from a re-analysis of the deposited data

Results flagged for a closer look

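Within a condition, the gap of the most extreme culture to its nearest neighbour was divided by the range of the 4 cultures on log2(CPM + 1), over 24 groups of 8 genes and 3 conditions. It was past Dixon's 95% value in 4 groups, in each of which untreated culture G was the lowest. The gap was 0.917 of the range for Cacna1b, 0.913 for Cacna1d, 0.881 for Cacna1i and 0.868 for Cacna1e. Chance flags about 1 in 20 groups, and these 4 come from a single library and are not separate observations. The neuron marker score of that library was 4.27 against 7.58 to 8.02 in the others, and its part in the 4 values was not tested.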

How the results depend on the processing

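The thresholds for a call were met by 0 of the 8 members in all 3 comparisons under each of 25 alternatives. With 4 RUVs factors, Cacna1b (0.34, adjusted p = 0.0348) and Cacna1c (0.42, adjusted p = 0.0411) passed the adjusted p but not the fold change in high vs. low dose. Genes called numbered 1, 39, 15, 2 and 3 for high dose vs. untreated with 2 factors, 4 factors, the letter set block without G, the likelihood ratio test and DESeq2. For high vs. low dose they were 1, 113 and 14 with the first 3 of these and 1 with DESeq2. Members with an unadjusted p under 0.05 numbered 3, 5 and 1 for low dose vs. untreated with 4 factors, the block without G and the neuron score covariate without G. They were 1 and 1 for high dose vs. untreated with 4 factors and the block without G. For high vs. low dose they were 1, 5, 5 and 1 with 2 factors, 4 factors, the block without G and the covariate without G, and 3 with only the 8 cultures compared. Leaving out 1 culture gave 0 to 4 such members for low dose vs. untreated (4 without G), 0 to 1 for high dose vs. untreated (1 without M) and 0 to 5 for high vs. low dose (5 without G, 3 without N). Members without overlap then numbered 0 to 1 (Cacna1d without G), 0 to 1 (Cacna1b without C) and 2 to 4 (4 without B, among them Cacna1a with the lower levels at the high dose), and 0 after subtraction of the neuron score. Shares of all genes are given only for the reported model and the block without G. The other counts of members have no such share beside them and show nothing particular to the members. For high vs. low dose, Cacna1b (0.17 to 0.54), Cacna1c (0.29 to 0.56), Cacna1d (0.07 to 0.22) and Cacna1e (0.26 to 1.22) kept their direction under all 26 alternatives of the fold change. Of 624 alternative fold changes of the members, 65 changed sign, and the cause was not tested. For low dose vs. untreated, the changed values of Cacna1a, Cacna1b, Cacna1g and Cacna1i were −0.02, −0.05, −0.34 and −0.03 with 4 factors, −0.09, −0.17, −0.45 and −0.19 with the block without G, −0.03, −0.13, −0.33 and −0.12 with the neuron score covariate, and −0.15, −0.22, −0.06 and −0.11 with that covariate without G. Cacna1g was −0.09 with 2 factors, Cacna1c and Cacna1d 0.06 and 0.05 with the block on all cultures, and Cacna1c, Cacna1d and Cacna1e 0.12, 0.10 and 0.43 as plain differences of log2(CPM + 1). For high dose vs. untreated, Cacna1d was −0.04 with 4 factors, −0.12 with the block without G and −0.02 with 8 cultures, and Cacna1a 0.09 with the block and 0.16 as a plain difference. Cacna1d, Cacna1e, Cacna1g and Cacna1i were −0.17, −0.21, −0.05 and −0.13 with the covariate and −0.12, −0.10, −0.27 and −0.14 with it without G. For high vs. low dose, Cacna1i was −0.01 with the covariate, and Cacna1a, Cacna1g and Cacna1i were 0.06, −0.21 and −0.03 with it without G. With 1 culture left out, the ranges that crossed 0 were, for low dose vs. untreated, Cacna1a −0.12 to 0.41, Cacna1b −0.18 to 0.48, Cacna1c −0.36 to 0.11, Cacna1d −0.27 to 0.01, Cacna1e −0.88 to 0.58, Cacna1g −0.46 to 0.63 and Cacna1i −0.23 to 0.73. For high dose vs. untreated they were Cacna1a −0.21 to 0.19, Cacna1d −0.13 to 0.15, Cacna1e −0.13 to 1.11 and Cacna1i −0.06 to 0.88, and for high vs. low dose Cacna1h −0.15 to 0.17 and Cacna1i −0.05 to 0.51. The covariate without G was added after the data were seen. Shares per transcript length were not run, since no transcript lengths were used here. The lowest count of a member was 10, that of Cacna1e in G, above the floor of 3.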
